A study of Mus musculus with 9 samples.

Results

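Mitochondrial ribosomal protein genes encode the proteins of the ribosome that works inside mitochondria. They were taken here as every gene of the deposited table whose RefSeq transcripts carry a symbol made of Mrpl (large subunit) or Mrps (small subunit), a number and at most 1 letter. The rule gave 78 of the 23798 genes of the table, 49 of the large and 29 of the small subunit. They filled 96 transcript lines, and 69 of the genes had a single transcript. Their values were low to moderate in every library: each gene had between 131 and 2206 counts in a WT library, and mean levels over the 6 TG libraries ran between 2.57 and 7.50 on the log2(FPKM + 1) scale. FPKM is a count of fragments scaled by transcript length and library size.

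The mitochondrial ribosome translates the few mRNAs of the mitochondrial genome, all of which encode subunits of the respiratory chain and ATP synthase. Its rRNAs come from the mitochondrial genome, while every one of its proteins is encoded in the nucleus, made in the cytoplasm and imported. Some of the proteins have a counterpart in the ribosome of bacteria, and others are found in mitochondria only. Neurons and myelin-making cells both depend on the respiratory chain that this ribosome helps to build.

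By its title the series is about oligodendrocytes, which wrap axons in myelin, and about how they respond to alpha-synuclein made by neurons. RNA came from mouse brain in 3 groups of 3 libraries: TG mice given NM-101, TG mice given placebo, and WT mice given placebo. The labels give neither the transgene behind TG, its promoter, the age of the mice nor what NM-101 is, and they do not say whether the libraries came from separate animals. P-values therefore measure the spread between these libraries, which may be technical. The extraction kit was one for fixed and embedded tissue, and QuantSeq libraries, which read the 3' end of transcripts, were made from the RNA.

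The WT values were counts, with totals of 10612290, 14041951 and 11774367 in the 3 libraries. The TG values were on a log2 scale, and the number of reads behind them is unknown. All libraries are labelled oligodendrocyte, but 15 of 15 neuronal marker genes were measured in the TG libraries. Their summed level was 5876 to 6458 FPKM under NM-101 and 5707 to 6171 FPKM under placebo, against 2150 to 3872 and 1651 to 5056 FPKM for the 15 oligodendrocyte markers. No gene of these lists was at 0 in any TG library. TG placebo replicate 1 stood apart from the other TG placebo libraries. Its 9 choroid plexus and ependymal markers summed to 4948 FPKM, against 32.1 and 38.6 FPKM in placebo replicates 2 and 3, and its 6 nuclear-retained RNAs summed to 197 FPKM, against 1139 and 1379 FPKM. In replicate 1 the 15 oligodendrocyte markers summed to 5056 FPKM, against 1726.5 and 1651 FPKM in placebo replicates 2 and 3. Under NM-101 the choroid sums were 100.5, 1135 and 115 FPKM, and the nuclear-retained sums were 397, 391 and 307 FPKM. The oligodendrocyte sums under NM-101 were 3872, 2150 and 2863 FPKM.

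The promoters below belong to the 5 mitochondrial ribosomal protein genes with the largest difference between NM-101 and placebo, and to Mrpl17, the lowest gene of the group and the only one whose promoter held both of the motifs marked. Each line gives the 250 bases before the RefSeq start (GRCm38.p6), read along the strand of the gene. Capitals mark CCGGAAG, a core of the sites that ETS-family factors such as GABP (NRF-2) bind, or a core of the sites of NRF-1 (GCGC, any base, TGCGC), on either strand. Both factors are known regulators of nuclear genes for mitochondria. The windows are chr14:54426659-54426908 for Mrpl52, chr5:100798509-100798758 for Mrps18c, chr11:58171414-58171663 for Mrpl22, chr6:83108858-83109107 for Mrpl53 and chr8:71464676-71464925 for Mrpl34, all on the plus strand. The start used for Mrpl22 lies inside the bounds that RefSeq gives the gene. Mrpl17 is on the minus strand, at chr7:105811088-105811337.
Mrpl52: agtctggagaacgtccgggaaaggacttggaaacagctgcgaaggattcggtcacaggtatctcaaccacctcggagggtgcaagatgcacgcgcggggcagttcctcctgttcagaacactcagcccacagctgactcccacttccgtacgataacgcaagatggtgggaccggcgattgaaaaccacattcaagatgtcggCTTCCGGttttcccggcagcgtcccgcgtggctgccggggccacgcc
Mrps18c: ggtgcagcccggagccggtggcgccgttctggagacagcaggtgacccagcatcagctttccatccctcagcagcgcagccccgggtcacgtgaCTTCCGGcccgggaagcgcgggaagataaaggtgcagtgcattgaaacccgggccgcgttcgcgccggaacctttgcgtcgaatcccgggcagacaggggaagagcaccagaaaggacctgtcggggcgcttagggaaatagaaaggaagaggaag
Mrpl22: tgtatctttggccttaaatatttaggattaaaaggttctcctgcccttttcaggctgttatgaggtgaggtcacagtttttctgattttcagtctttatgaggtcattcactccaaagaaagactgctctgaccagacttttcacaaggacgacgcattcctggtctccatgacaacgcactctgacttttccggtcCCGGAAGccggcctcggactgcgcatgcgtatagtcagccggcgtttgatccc
Mrpl53: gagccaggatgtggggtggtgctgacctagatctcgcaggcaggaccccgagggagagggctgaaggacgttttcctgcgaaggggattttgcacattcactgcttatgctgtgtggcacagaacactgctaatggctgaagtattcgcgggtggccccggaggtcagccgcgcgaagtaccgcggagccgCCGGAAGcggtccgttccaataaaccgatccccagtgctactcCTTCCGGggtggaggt
Mrpl34: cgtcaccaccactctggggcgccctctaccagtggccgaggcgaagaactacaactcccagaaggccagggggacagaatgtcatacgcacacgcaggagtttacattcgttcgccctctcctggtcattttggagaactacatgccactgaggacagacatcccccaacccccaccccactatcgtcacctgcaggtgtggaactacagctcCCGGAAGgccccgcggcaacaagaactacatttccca
Mrpl17: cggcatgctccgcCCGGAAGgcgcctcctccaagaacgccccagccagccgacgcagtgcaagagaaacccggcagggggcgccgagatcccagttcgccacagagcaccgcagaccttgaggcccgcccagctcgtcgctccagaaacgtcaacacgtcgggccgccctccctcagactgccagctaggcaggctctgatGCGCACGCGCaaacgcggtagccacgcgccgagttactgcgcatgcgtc

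RefSeq promoters were matched for 69 of the 78 genes. CCGGAAG was in 17 of them (24.6%), against 13.5% of 10058 promoters of tested genes and 7.05% of all 27025 promoters in the table. The NRF-1 letters were in 10 (14.5%), against 8.44% of tested genes and 3.86% of all. GGGCGG, the GC box that SP1 binds, was in 33 of the 69, or 47.8%, against 60.5% of tested genes and 32.9% of all. The YY1 letters AAGATGGC were in 4 (5.80%), against 2.10% of tested genes, and TATAAA was also in 4, against 6.06% of tested genes. Both strands were searched, and overlaps among the motifs were kept. The median difference between NM-101 and placebo was 0.22 for the 17 genes with CCGGAAG and 0.13 for the 52 without it, a description with no test. For the NRF-1 letters it was 0.21 for 10 genes with them and 0.12 for 59 without. For the YY1 letters it went the other way, at 0.05 for 4 genes with them and 0.15 for 65 without. Transcript length was not taken into account. All 5 genes shown for their difference hold CCGGAAG, but the 5 were picked by that difference. Their annotated transcripts are short, between 418 and 722 bases.

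The 78 genes lay on 17 chromosomes, with 11 of them on chromosome 11. For 19 of them (24.4%) another protein-coding gene started on the opposite strand within 1000 bases of their own start, against 10.5% of 12028 protein-coding genes tested. Mrps18c and Helq, a DNA helicase, start 29 bases apart, and Mrps12 and Sars2, the mitochondrial seryl-tRNA synthetase, 172 bases apart. Exons of 33 of the 78 genes overlapped exons of another annotated gene, 28 on the opposite and 8 on the same strand. The sources used here do not say whether reads were counted by strand, so the values of these genes can include reads of their neighbours. Among the genes described further on this applies to Mrpl10, Mrpl12, Mrpl18, Mrpl19, Mrpl21, Mrpl33, Mrpl48, Mrpl53, Mrpl58, Mrps6, Mrps18b, Mrps18c, Mrps25, Mrps26, Mrps27 and Mrps30. Mrpl23, Mrpl27, Mrpl48 and Mrps36 also have near copies in the genome, found by their pseudogene symbols, that have no line of their own in the table.

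In the WT libraries the 78 genes together took 0.285%, 0.309% and 0.315% of all counts. Mrps25, a small subunit protein found only in mitochondria, drew the most reads, with 1600, 2206 and 1878 counts, or 155.8 ± 4.51 CPM (counts scaled by the library total; SD, n = 3). It was followed by Mrps33, also specific to mitochondria, with 1039, 1415 and 1413 counts (106.2 ± 12.02 CPM). Mrpl30, a relative of bacterial L30, had 774, 1173 and 933 counts (78.6 ± 5.33 CPM). The fewest reads were assigned to Mrpl21, with 152, 187 and 170 counts (14.0 ± 0.617 CPM), and to Mrps28, with 131, 185 and 227 counts (14.9 ± 3.79 CPM). Counts are not divided by length, so this is an order of reads and not of levels.

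Replicate WT libraries differed little for most of the genes. The coefficient of variation of the CPM had a median of 6.86%, where counting error alone would give a median of 4.89%, and it was above the counting error for 58 of the 78 genes. Mrps30, with 281, 376 and 306 counts, varied by 1.51%. Mrps28 and Mrpl23 varied most, by 25.4% and 22.2%, and Mrpl23 had 327, 623 and 568 counts. In both genes replicate 1 was the lowest library after division by its total.

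In the TG libraries levels spanned nearly 5 log2 units within each treatment, and the order of the genes was much the same under NM-101 and placebo (Spearman's rho 0.99 over the 78 genes, across genes that share libraries, as a description). Mrps21, a relative of bacterial S21, had the highest level, at 7.52, 7.72 and 7.67 under NM-101 and at 7.27, 7.37 and 7.47 under placebo. Mrpl30 came next, at 7.07, 7.18 and 7.12 under NM-101 and at 6.82, 6.73 and 6.87 under placebo. For both genes every NM-101 library was above every placebo library. Mrpl20, Mrps18c, Mrpl52 and Mrpl33 followed with means over the 6 libraries between 6.78 and 6.87, so the order among these 4 is within their spread. Of the small subunit, Mrps33 and Mrps26, both specific to mitochondria, came after Mrps21 and Mrps18c. Mrps33 stood at 6.67 ± 0.16 under NM-101 and 6.36 ± 0.16 under placebo, and Mrps26 at 6.11 ± 0.09 and 6.00 ± 0.08 (SD, n = 3 each).

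At the low end, Mrpl17, a relative of bacterial L17, stood at 2.63, 2.80 and 2.50 under NM-101 and at 2.65, 2.39 and 2.46 under placebo, with overlapping groups. Mrpl1, which forms the L1 stalk where tRNAs leave the ribosome, stood at 2.94, 3.04 and 3.30 under NM-101 and at 2.79, 2.80 and 2.62 under placebo. Its groups did not overlap. Mrps27 and Mrps31 were the lowest of the small subunit, at 3.53 ± 0.11 and 3.93 ± 0.16 under NM-101 against 3.76 ± 0.09 and 3.64 ± 0.07 under placebo. Levels depend on the length by which the authors divided: Mrpl17 had an implied length of 7409 bases and Mrps21 one of 245, where implied length means WT CPM divided by the mean TG FPKM, times 1000. In WT counts the 2 genes were close, with 36.8 ± 2.18 CPM for Mrpl17 and 44.4 ± 8.85 CPM for Mrps21.

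**Figure D1:**
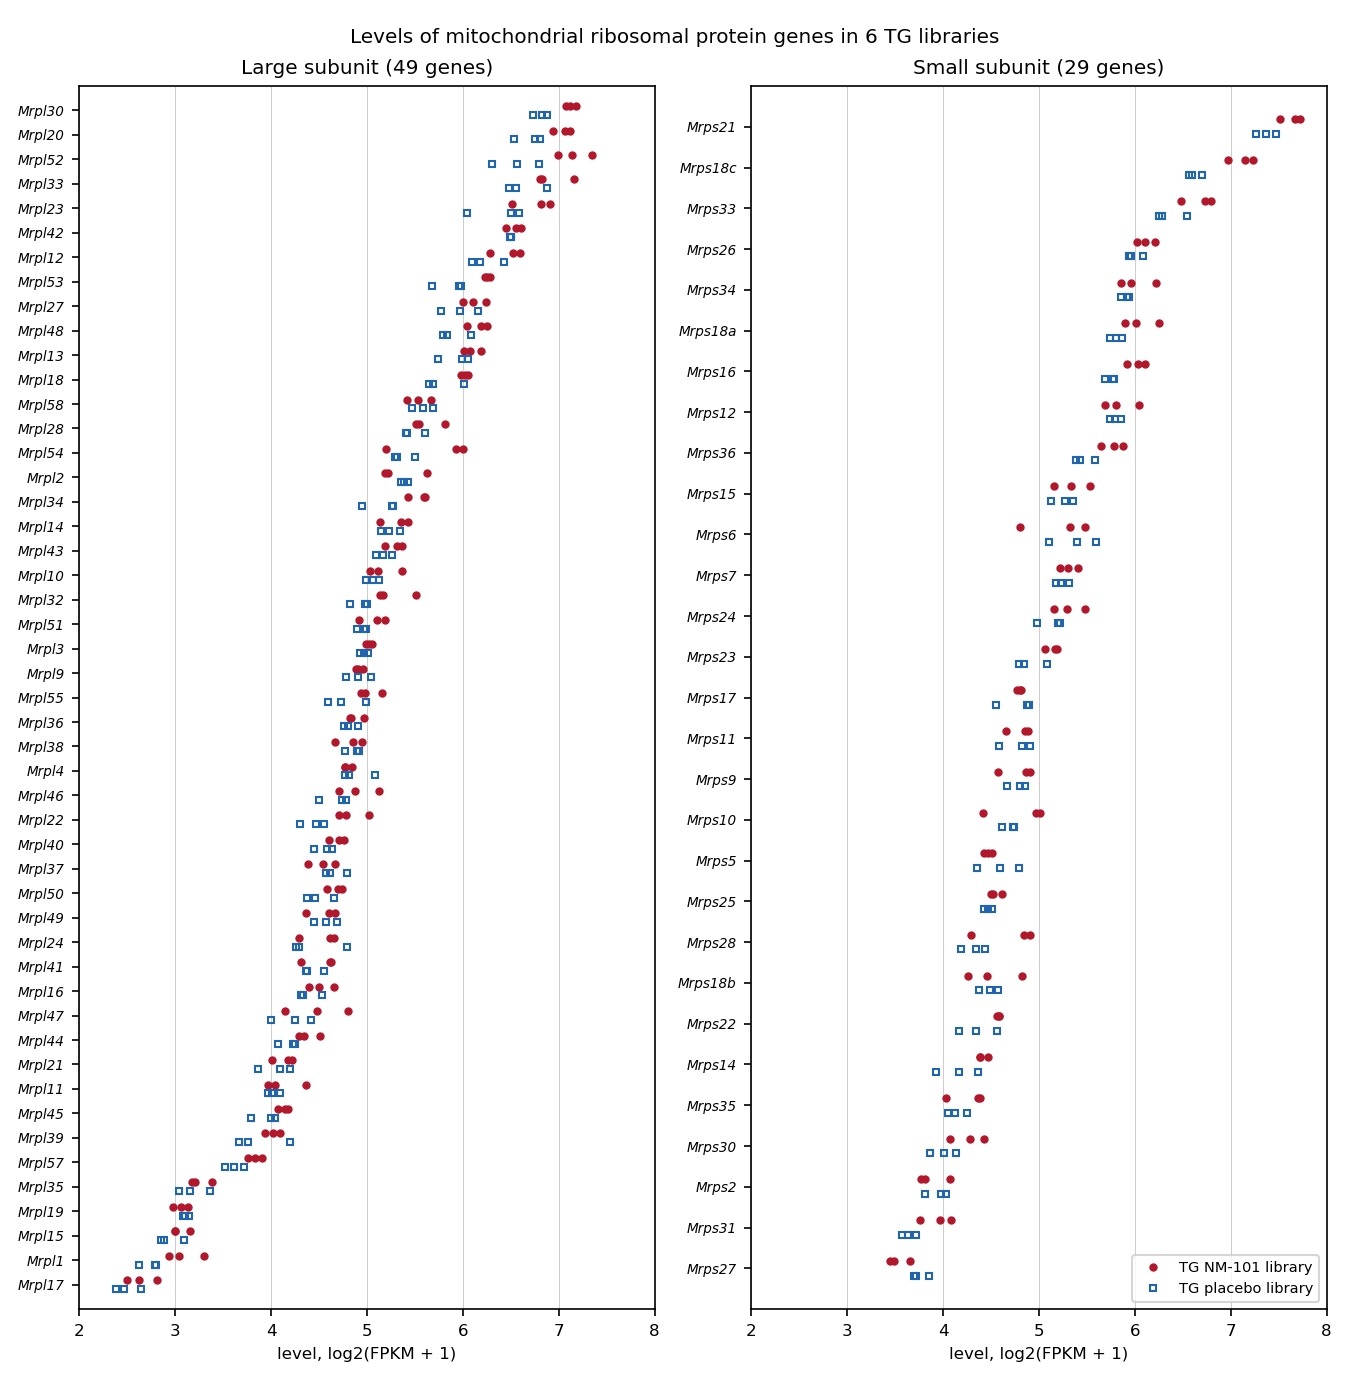
Level of each of the 78 genes on the log2(FPKM + 1) axis in the 3 TG NM-101 libraries (red circles) and the 3 TG placebo libraries (blue squares), large subunit at left and small subunit at right, ordered by mean level. Mrps21 and Mrpl30 are at the top, Mrps27 and Mrpl17 at the bottom, and red points tend to lie right of blue ones.

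TG mice given NM-101 had slightly higher levels of most mitochondrial ribosomal protein genes than TG mice given placebo, but no gene of the group passed the test. Of 78 genes tested, 67 (85.9%) were higher under NM-101 and 11 were lower, against 55.5% higher among all 12699 genes tested. The median difference on the log2(FPKM + 1) scale was 0.14, and over all genes it was 0.03. The libraries were not on an equal total scale. Their linear values summed to 494042, 538144 and 660628 under NM-101, against 473933, 435749 and 464397 under placebo. After median-ratio scaling between libraries the median of the 78 was 0.11, with 63 higher. At a limma adjusted p under 0.05, 0 of the 78 were called, against 0.134% of all genes (17 genes). At an unadjusted p under 0.05, 15 were higher and 0 lower, against 10.7% and 4.17% of all genes. All 3 NM-101 libraries were above all 3 placebo libraries for 19 genes (24.4%), against 13.6% of all genes, and below them for 1 gene, Mrps27, against 5.98%. In bulk RNA, fewer cells of a type and less RNA per cell cannot be told apart.

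Mrpl52, a large subunit protein found only in mitochondria, had the largest difference. It stood at 6.99, 7.35 and 7.14 under NM-101, against 6.30, 6.56 and 6.79 under placebo. The lowest NM-101 library was above the highest placebo library, and the 1.52-fold difference (0.61 ± 0.14, SE) had a limma adjusted p of 0.118. Mrps18c, a small subunit relative of bacterial S18, stood at 6.97, 7.23 and 7.15 under NM-101 and at 6.60, 6.56 and 6.70 under placebo. The groups were well apart, 1.41-fold (0.50 ± 0.10, SE), and its limma adjusted p of 0.0881 was the lowest of the 78.

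Mrpl22, whose bacterial relative lines the tunnel through which new protein leaves, stood at 4.71, 4.78 and 5.02 under NM-101 and at 4.30, 4.55 and 4.47 under placebo. Every NM-101 library was higher, by 1.32-fold on average (limma adjusted p 0.184). Mrpl53, specific to mitochondria, stood at 6.23, 6.25 and 6.28 under NM-101 and at 5.98, 5.67 and 5.95 under placebo. The NM-101 libraries were tightly grouped above the placebo ones, with a 1.31-fold difference and a limma adjusted p of 0.151. Mrpl34, a relative of bacterial L34, stood at 5.59, 5.61 and 5.42 under NM-101 and at 5.26, 4.94 and 5.27 under placebo. Again the groups were apart, by 1.30-fold, with a limma adjusted p of 0.196. In GRCm38 Mrpl52 lies on chromosome 14 from 54426909 to 54429750, Mrps18c on chromosome 5 from 100798759 to 100804467, Mrpl22 on chromosome 11 from 58170043 to 58179580, Mrpl53 on chromosome 6 from 83109108 to 83109932 and Mrpl34 on chromosome 8 from 71464926 to 71465753.

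Among the high-level genes, Mrpl20 was higher by 0.34 ± 0.10, Mrpl30 by 0.31 ± 0.08 and Mrpl33 by 0.29 ± 0.14 (SE), with limma adjusted p of 0.188, 0.152 and 0.364. Mrpl20 stood at 6.94, 7.12 and 7.06 under NM-101 and at 6.80, 6.53 and 6.76 under placebo, without overlap, whereas Mrpl33 stood at 6.80, 7.16 and 6.83 and at 6.48, 6.55 and 6.88, with overlap. Mrpl1 was higher by 0.36 ± 0.14 and Mrps31 by 0.29 ± 0.12 (SE), with limma adjusted p of 0.282 and 0.288. Both are genes of low level, and for both all NM-101 libraries were above all placebo libraries.

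The lower genes differed by less. Mrps27, a mitochondria-specific protein of the small subunit, stood at 3.44, 3.66 and 3.48 under NM-101 and at 3.85, 3.72 and 3.69 under placebo. Its groups did not overlap, and the difference of -0.23 ± 0.11 (SE) had a limma adjusted p of 0.371. Mrps6, the relative of bacterial S6 that sits beside S18, stood at 5.32, 5.48 and 4.80 under NM-101 and at 5.59, 5.40 and 5.11 under placebo. It had the widest spread of the lower genes and overlapping groups (-0.17 ± 0.19, SE), and its exons overlap those of Slc5a3 on the same strand. Mrpl37 was lower by 0.13, Mrps5, the relative of bacterial S5, by 0.11, and Mrpl4, the relative of a tunnel protein, by 0.10, each with overlapping groups and a limma adjusted p above 0.6. Mrps5 stood at 4.47 ± 0.04 under NM-101 and at 4.58 ± 0.22 under placebo (SD, n = 3 each), so its placebo libraries varied more than the groups differed.

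**Figure D2:**
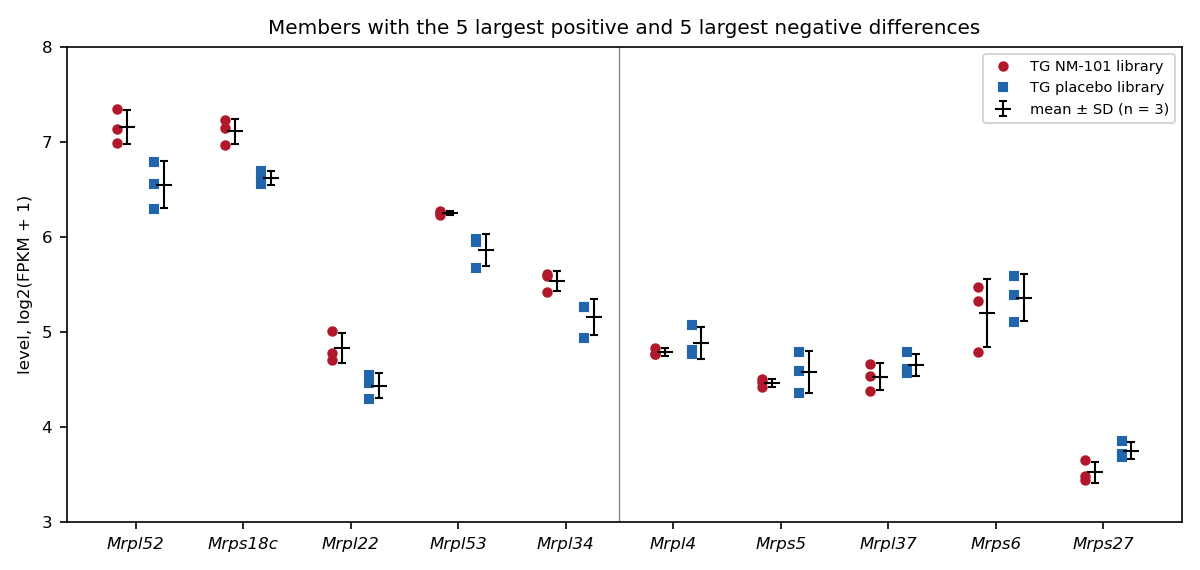
Levels on the log2(FPKM + 1) axis of the 5 genes with the largest positive difference (left of the line) and the 5 with the largest negative one (right), in TG NM-101 (red circles) and TG placebo libraries (blue squares), with mean ± SD (n = 3). The groups of the 5 genes at left do not overlap, and at right only those of Mrps27 do not.

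Among genes with short transcripts, differences went with transcript length. Across all genes tested, the median difference between NM-101 and placebo was 0.31 for transcripts of up to 600 bases, 0.19 for 600 to 800 bases, 0.14 for 800 to 1000 bases, 0.07 for 1000 to 1500 bases and 0.01 for 1500 to 2000 bases. It was within 0.01 of 0 for 2000 to 4000 bases, then 0.03 for 4000 to 6000, 0.05 for 6000 to 10000 and 0.05 above 10000 bases. Over all lengths Spearman's rho was -0.07 (12533 genes, as a description). The mitochondrial ribosomal protein genes are short, with a median of 1225 bases against 2953 for all genes. The 26 of up to 1000 bases had a median difference of 0.26, with 24 higher and 10 without overlap, or 38.5%. Among all 894 genes of that length the median was 0.19, 77.1% were higher and 28.3% did not overlap. The 52 longer ones had a median of 0.12, against 0.02 for all longer genes, but their median length was 1736 bases, against 3125. Less the median of all genes of the same length, these 52 had a median of 0.08, with 38 above and 14 below. The 26 short ones then had a median of 0.07, with 14 above and 12 below. After subtraction of the median of all genes of the same length, the median of the 78 was 0.08, with 52 above and 26 below. The implied length does not use the annotation, but it is computed from TG values that include the NM-101 libraries. A higher level under NM-101 shortens it by construction, so it is not independent of the difference between NM-101 and placebo. By implied length, 37 of the genes had up to 1000 bases. Of these 34 were higher, 12 had an unadjusted p under 0.05 and 12 did not overlap, against 74.2%, 29.0% and 27.1% of all 1177 genes of that implied length. Subtraction of same-length medians by implied length gave 0.06 for the 78, with 53 above.

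Removing the length trend of each library before the fit, an alternative chosen after seeing the data, gave a median of 0.08 with annotated lengths and 0.05 with implied lengths. In both fits 49 of the 78 genes were higher. Of all genes, 6143 of 12533 (49.0%) were higher with annotated lengths and 6184 of 12607 with implied lengths. At an unadjusted p under 0.05, 6 genes were then higher and 3 lower with annotated lengths, against 7.78% and 6.77% of all genes, and with implied lengths 3 were higher and 3 lower, against 7.67% and 6.27%. The genes with the largest differences kept part of them: Mrpl52 0.24, Mrps18c 0.25, Mrpl22 0.18, Mrpl53 0.16 and Mrpl34 0.12 with annotated lengths. With implied lengths they were 0.11 for Mrpl52, 0.14 for Mrps18c, 0.19 for Mrpl22, 0.09 for Mrpl53 and 0.10 for Mrpl34. Implied lengths are computed in part from the NM-101 values, so the fit with them can remove part of a difference by construction. Mrps21, the highest gene, turned from 0.26 to -0.11 with annotated and -0.21 with implied lengths. The cause of the length trend was not tested.

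**Figure D3:**
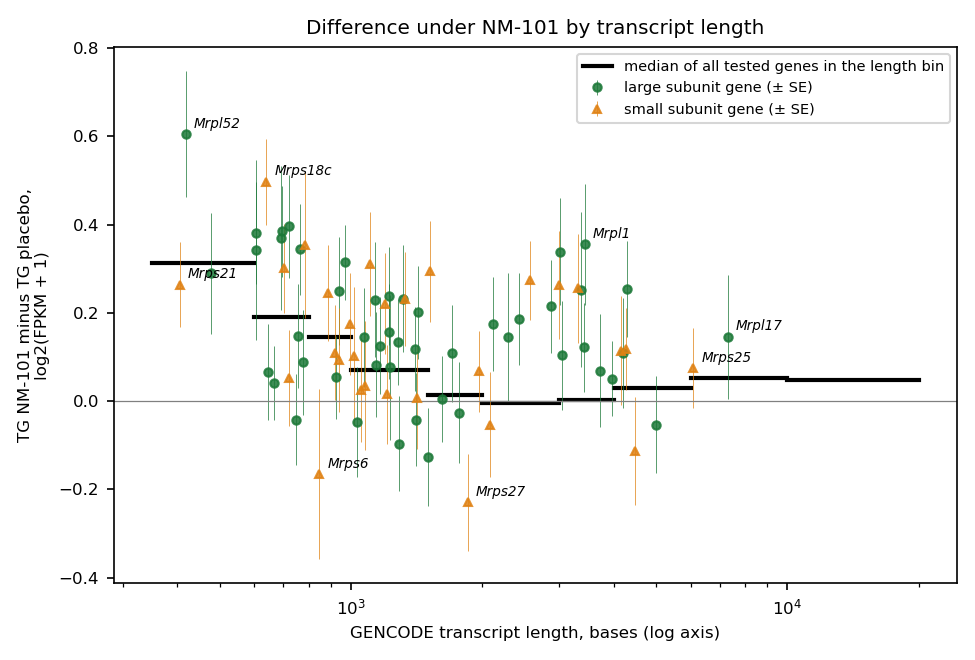
Difference between TG NM-101 and TG placebo on the log2(FPKM + 1) axis against annotated transcript length in bases (log axis) for large subunit genes (green circles) and small subunit genes (orange triangles), each ± SE. Black lines are medians of all tested genes in a length bin, at 0.31 for up to 600 bases and 0.19 for 600 to 800, and most of the 78 genes lie around or above them.

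NM-101 replicate 2 and placebo replicate 2 were the libraries farthest apart. After centring each gene on its mean over the 6 libraries, the median of the 78 genes was 0.01, 0.17 and 0.05 in the NM-101 libraries and -0.01, -0.14 and -0.07 in the placebo libraries. NM-101 replicate 2 was the highest of the 6 libraries for 46 of the 78 genes, against 16.9% of all genes, and placebo replicate 2 was the lowest for 36, against 17.9%. All genes of up to 1000 bases were likewise highest in NM-101 replicate 2 and lowest in placebo replicate 2, with medians of 0.02, 0.21 and 0.09 under NM-101 and -0.07, -0.18 and -0.07 under placebo. Without NM-101 replicate 2 the median difference of the 78 was 0.09, and without placebo replicate 2 it was 0.10.

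**Figure D4:**
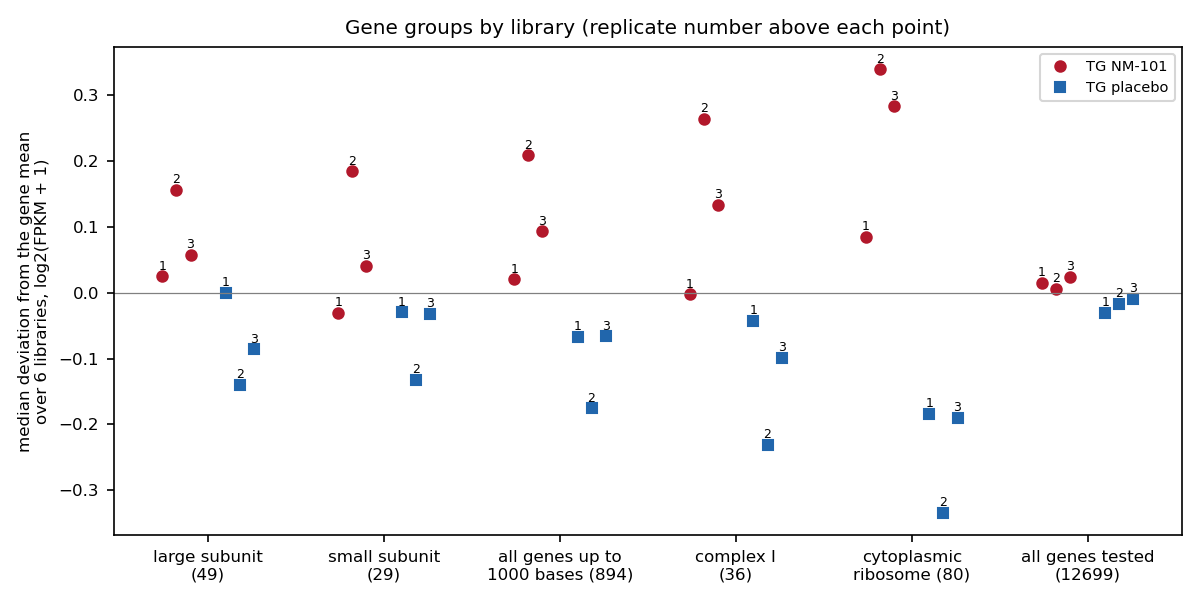
Median deviation from the gene mean over the 6 libraries, on the log2(FPKM + 1) axis, for groups of genes in each TG NM-101 library (red circles) and TG placebo library (blue squares), with the replicate number above each point. Both subunits, complex I and all short genes are highest in NM-101 replicate 2 and lowest in placebo replicate 2, while all genes tested lie near 0.

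Without TG placebo replicate 1, an alternative listed with the leave-one-out fits, limma called 12 of the 78 genes higher and 0 lower, or 15.4%, while it called 17.9% of all 12699 genes (2269). Those called higher were 9.69% of all genes tested. The 12 were Mrps18c, Mrpl53, Mrpl18, Mrpl52, Mrpl20, Mrps33, Mrpl34, Mrpl48, Mrpl30, Mrps23, Mrps14 and Mrps22. Their limma adjusted p then ran between 0.0116 for Mrps18c and 0.0464 for Mrps22. For 10 of the 12 the difference was larger than with all libraries, such as 0.35 against 0.24 for Mrpl18. For Mrps18c and Mrpl52 it was smaller, at 0.49 and 0.48. The median difference of the 78 was 0.20 without replicate 1. Replicate 1 stood apart in choroid plexus, nuclear-retained and oligodendrocyte RNAs, and their part in this gain of calls was not tested.

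Markers of several cell types also differed between the groups. All 12 astrocyte markers were higher under NM-101, with sums of 2680 to 2729 FPKM against 1933 to 2173 FPKM under placebo, and 1 of them, the transcription factor Sox9, was called (0.77, limma adjusted p 0.0425). Of 12 microglia markers 10 were higher, at 450 to 458 FPKM against 345 to 377 FPKM. Of 13 endothelial and mural markers 12 were lower, with sums of 95.2 to 113 FPKM against 111 to 151 FPKM. Neuronal markers were split, 9 higher and 6 lower, with a median difference of 0.02, and 12 of 15 oligodendrocyte markers were higher, with a median of 0.10. The part of these cell type markers in the differences of the mitochondrial ribosomal protein genes was not tested.

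Genes of both subunits were mostly higher under NM-101. Of 49 large subunit genes 42 were higher, with a median difference of 0.15, 9 at an unadjusted p under 0.05 and 11 without overlap. Of 29 small subunit genes 25 were higher, with a median of 0.11, 6 at an unadjusted p under 0.05, and 8 without overlap on the higher side. After subtraction of the same-length median the values were 0.09 for the large and 0.03 for the small subunit. The shares over all genes at an unadjusted p under 0.05 and without overlap on the higher side were the 10.7% and 13.6% given above, and 29.0% and 27.1% among genes of up to 1000 bases of implied length. The mean level of large subunit genes less that of small subunit genes was -0.08, -0.12 and -0.12 in the NM-101 libraries, against -0.11, -0.14 and -0.15 in the placebo libraries. The groups overlapped, at -0.11 ± 0.02 under NM-101 and -0.13 ± 0.02 under placebo (SD, n = 3 each). In rebuilt WT levels, on log2(RPKM + 1) with annotated lengths, it was -0.01 ± 0.02 (SD, n = 3), and each WT library was above each TG library. The WT and TG values were scaled separately and by different lengths, so no test was made between them.

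Summed over genes, the ratio of large to small subunit FPKM was 1.64, 1.61 and 1.60 under NM-101, against 1.61, 1.57 and 1.61 under placebo. In WT libraries the ratio of summed counts was 1.60, 1.65 and 1.58. Sums of counts are not divided by length, so the WT ratio is on another scale than the TG ratios. Mrps18a and Mrps30 carry small subunit names but sit in the large subunit of the mammalian mitochondrial ribosome, and Mrps36 is now known as a part of the alpha-ketoglutarate dehydrogenase complex. With these 3 reassigned, 51 large and 26 small subunit genes gave mean ratios of 1.88 ± 0.03 under NM-101, 1.84 ± 0.03 under placebo and 1.85 ± 0.05 in WT (SD, n = 3 each).

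**Figure D5:**
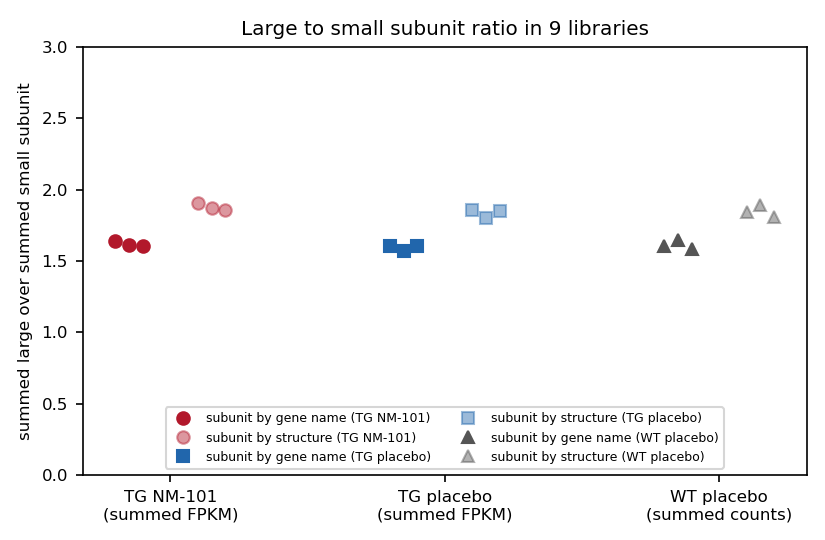
Ratio of the summed level of large subunit genes to that of small subunit genes in each of the 9 libraries, from summed FPKM in TG NM-101 and TG placebo and from summed counts in WT placebo. Dark symbols assign genes by name and lie between 1.57 and 1.65, and pale symbols assign them by structure and lie between 1.80 and 1.91.

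Genes with a bacterial counterpart and genes specific to mitochondria were both mostly higher under NM-101. Of 47 with a counterpart 41 were higher, at a median difference of 0.11, and of 31 specific to mitochondria 26 were higher, at a median of 0.18. No test was made of the difference between these medians. The genes of the stalk that recruits translation factors were not called. Mrpl12, the counterpart of L7/L12, stood at 6.28, 6.59 and 6.53 under NM-101 and at 6.43, 6.10 and 6.17 under placebo (0.23 ± 0.12, SE). Mrpl10, its anchor, differed by 0.11 ± 0.11 and Mrpl11, at the base of the stalk, by 0.10 ± 0.12 (SE), and all 3 had overlapping groups.

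Of the mammalian relatives of bacterial S18 none was called, and the differences between them were not tested. Mrps18c differed from placebo under NM-101 by 0.50, as given above, Mrps18a by 0.25 ± 0.11 and Mrps18b by 0.04 ± 0.15 (SE). Mrps18a stood at 5.89, 6.25 and 6.01 under NM-101 and at 5.87, 5.74 and 5.81 under placebo, with its groups just apart, and Mrps18b at 4.26, 4.83 and 4.46 and at 4.37, 4.57 and 4.49, fully overlapping. Mrps12, which takes part in codon reading, stood at 5.85 ± 0.18 under NM-101 and 5.80 ± 0.06 under placebo. Mrpl58, a large subunit protein that can release stalled peptides, stood at 5.54 ± 0.13 under NM-101 and 5.58 ± 0.11 under placebo (SD, n = 3 each). Mrps30 differed by 0.26 ± 0.12 with overlapping groups, and Mrps36 by 0.30 ± 0.10 without overlap (SE), with limma adjusted p of 0.375 and 0.236. Mrps36 stood at 5.88, 5.79 and 5.64 under NM-101 and at 5.43, 5.39 and 5.58 under placebo.

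For comparison with WT, WT counts were rebuilt as log2(RPKM + 1) with annotated lengths, for 77 of the 78 genes, and no test was made because the columns were normalized separately. The median difference from WT was 0.21 for TG NM-101 and 0.10 for TG placebo, against 0.05 for all 12410 genes with both values in each case. After subtraction of the median of genes of the same length the values were 0.07 and 0.05. Without TG placebo replicate 1 the median of TG placebo less WT was 0.06. Both TG groups share the WT libraries. Rebuilt WT levels and TG placebo levels ranked the genes similarly (Spearman's rho 0.79 over 77 genes, as a description).

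The departures from WT cannot be told apart from errors of the annotated length, because the implied length is itself computed from the WT and TG values. Where TG is far from rebuilt WT, the implied length is by construction far from the annotated one. Mrps16, a relative of bacterial S16, was 2.61 above WT in TG NM-101 and 2.33 above it in TG placebo. Its annotated transcript has 2572 bases and its implied length was 426. Mrps26 was above WT by 2.40 in TG NM-101 and 2.28 in TG placebo, with 4278 annotated and 794 implied bases. Mrpl48 was above WT by 2.09 in TG NM-101 and 1.84 in TG placebo, with 4285 annotated and 910 implied bases. On the other side, Mrpl41 differed from WT by -1.67 in TG NM-101 and -1.76 in TG placebo, with 776 annotated and 2625 implied bases.

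Among the remaining genes departures below WT were small. Mrpl50 differed by -0.22 in TG NM-101 and -0.40 in TG placebo, and Mrps31 by -0.10 and -0.39. Mrps27 differed by -0.28 and -0.05, and Mrpl19, whose bacterial relative sits at the contact of the subunits, by -0.24 and -0.18. Mrps31 stood at 3.96, 4.08 and 3.76 under NM-101 and at 3.71, 3.63 and 3.57 under placebo, against rebuilt levels of 3.98, 4.11 and 4.02 in WT. Its placebo libraries were below the WT ones, and the NM-101 libraries overlapped the WT ones. Its annotated transcript has 1515 bases and its implied length was 1807, so its place beside WT cannot be told apart from an error of length.

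Other genes of the mitochondrial ribosome and its surroundings gave a mixed picture. Of 5 mitochondrial ribosomal proteins with other names, Chchd1 stood at 6.42, 6.60 and 6.66 under NM-101 and at 6.10, 5.92 and 6.03 under placebo. It was higher in every NM-101 library (0.54 ± 0.10, SE, limma adjusted p 0.0823), while Aurkaip1 differed by 0.15, Dap3 by 0.00, Gadd45gip1 by -0.06 and Ptcd3 by -0.08. Of 16 mitochondrial translation factors and mRNA partners, 8 were higher and 8 lower, with a median of -0.01. Slirp, a partner of mitochondrial mRNAs, differed by 0.41 and the recycling factor Gfm2 by -0.54. Of 25 assembly factors 11 were higher, with a median of -0.06, and Rpusd4 and Mtg1 differed by -0.33 and -0.26. Of 8 genes of mitochondrial transcription and replication 5 were higher, with Tfam, which packs mitochondrial DNA, at 0.28 and the polymerase Polg at -0.26. None of the genes in these 4 lists was called by limma, and at an unadjusted p under 0.05 the lists held 3 higher and 3 lower genes in all.

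Genes of complex I, some of whose subunits are made on mitochondrial ribosomes, were mostly higher under NM-101 too. Of 36 nuclear-encoded subunits 34 were higher, with a median difference of 0.23 and a median length of 745 bases, and the median was 0.05 after subtraction of the same-length median. Ndufb4 and Ndufb8 differed by 0.62 and 0.46 (limma adjusted p 0.0855 and 0.0881). Cytoplasmic ribosomal proteins stood further out, with 79 of 80 higher, a median of 0.48, and 0.31 after subtraction of the same-length median. Of these, 3 were called by limma, among them Rps27l (0.74, adjusted p 0.0425) and Rps14 (0.82, adjusted p 0.0486).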

How the data were processed

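RNA-seq of mouse brain libraries was analysed from 1 table that the authors deposited, of 33299 RefSeq transcripts in 9 libraries. The WT columns hold counts per transcript as deposited, with whole numbers. The TG columns hold log2 values as deposited, read here as log2(FPKM + 1) because their linear values fall with transcript length. No label states that unit. The submitters' processing notes name Bowtie2 and mm10, and the counting and normalizing program is not given in the sources used here. Symbols, promoters and gene positions came from RefSeq (GRCm38.p6), and lengths and neighbouring genes from GENCODE (GRCm38). Symbols were found for 32394 transcripts, and 905 kept their identifiers.

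Linear values were summed per gene and written as log2(value + 1), so differences understate the change of low genes. The 12699 genes with a mean of at least 1 over the 6 TG libraries were tested with limma 3.58.1 (trend and robust, two-sided) in R 4.3.3, TG NM-101 against TG placebo. P-values were adjusted by Benjamini-Hochberg over all genes, with 0.05 as the threshold. The fit was tested on simulated data. WT libraries entered no test, and their counting error covers counting only. Intervals for TG values could not be given, since their depth is unknown.

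The genes, the gene lists and the naming rule were chosen with earlier results of these data known. The rule names the highest and lowest genes of each subunit, the 5 largest differences each way, the 3 largest differences from WT each way and a set of genes by role. Mrps25, Mrpl21, Mrps28 and Mrpl23, and Mrpl18, Mrps23, Mrps14 and Mrps22, were named after their values were seen. TG libraries of equal replicate number showed little shared deviation, with r of 0.04, -0.03 and -0.02 across genes. This does not settle whether they were paired.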

Additional observations from a re-analysis of the deposited data

How the results depend on the processing

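Settings other than the length corrections and the leave-one-out fits gave 0 called genes among the 78 and left 63 to 67 of them higher, or 59 of the 69 with a single transcript. The number of all genes called was less stable: 17 in the fit as reported, 4 with median-ratio scaling, 4 with no filter on low values, 4 with limma without trend and robust, 3 with the replicate block, and 3 with either length trend removed. With genes required above 0 in every sample, limma called 0 of 12664 genes, while 1894 had an unadjusted p under 0.05. Leaving out 1 library gave between 2 and 2269 called genes, between 0 and 12 called among the 78 and between 10 and 26 of the 78 at an unadjusted p under 0.05, with the highest value of each without TG placebo replicate 1. The replicate block, on numbers whose meaning the labels do not give, called 0 of the 78.

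The length corrections were chosen after seeing the data. Those by implied length draw on the NM-101 values and are not independent of the difference between NM-101 and placebo. Against 15 genes at an unadjusted p under 0.05, all higher, there were 6 with implied lengths (3 higher and 3 lower) and 9 with annotated lengths (6 higher and 3 lower). With the implied length trend removed the median difference was 0.0544 for the 78, 0.0729 for the large and 0.00359 for the small subunit. With same-length medians by implied length subtracted it was 0.0630 for the 78 and 0.0117 for the small subunit, and the median of NM-101 less WT was 0.0656 by annotated length. Leaving out NM-101 replicate 2 or 1 gave a small subunit median of 0.07 or 0.19. The cause was not tested.

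Turns of direction were listed only for the 33 genes named by the rule. With implied lengths, Mrpl33 (-0.0927), Mrps12 (-0.208), Mrps16 (-0.0475), Mrps18b (-0.0504), Mrps21 (-0.214) and Mrps26 (-0.0258) turned. With annotated lengths, Mrpl33 (-0.0399), Mrpl41 (-0.108), Mrps12 (-0.164), Mrps18b (-0.0739) and Mrps21 (-0.110) turned. Genes outside the rule turned as well, such as Mrpl14, from 0.07 to -0.23 with implied and -0.18 with annotated lengths. Of all 78 genes, 67 were higher in the fit as reported and 49 in either length-corrected fit. Leaving out 1 library each gave differences between -0.017 and 0.182 for Mrpl11, -0.0472 and 0.130 for Mrps12 and -0.121 and 0.163 for Mrps18b, all 3 lowest without NM-101 replicate 2. They ran between -0.1065 and 0.0195 for Mrpl58 and between -0.305 and 0.0365 for Mrps6, both highest without NM-101 replicate 3.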
